A study of Homo sapiens with 3 samples.

Results

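The small proline-rich (Sprr) genes and Slurp1 were described in AB12 cells, a mouse malignant mesothelioma line, with and without a hairpin against Nf2, which encodes the tumour suppressor merlin. Members were every row of the deposited table whose symbol starts with Sprr and a digit, 9 genes, and Slurp1, so 10 of 13936 genes. They were chosen by their symbols, at a time when their fold changes in shNF2 against shSC were already known. The groups were 2 libraries of AB12 cells labelled shNF2, numbered 20 and 21, and 1 library of AB12 cells labelled shSC, which is treated here as carrying the control hairpin and whose source name says WT. All cells were grown in RPMI with serum, and no other treatment, clone or time is given; the labels say neither what 20 and 21 stand for nor that they came from separate cultures, so p-values measure only how these libraries differ, which could be technical. The organism is labelled as human, but the identifiers of the genes are mouse Ensembl ones.

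Small proline-rich proteins are precursors of the cornified envelope, the protein shell that replaces the plasma membrane of terminally differentiating keratinocytes. Transglutaminases crosslink them through glutamine and lysine residues at their ends to involucrin, loricrin and other partners, and their central proline-rich repeats act as flexible bridges. In mice the genes sit together in the epidermal differentiation complex, and several are induced outside skin by stress or injury, Sprr1a in regenerating neurons and stressed heart muscle among them. Slurp1 encodes a secreted protein of the Ly6/uPAR fold that keratinocytes release and that modulates nicotinic acetylcholine receptors; loss of the human gene causes the palmoplantar keratoderma mal de Meleda. Neither family is a textbook marker of mesothelium, and Sprr2 genes are close relatives of one another in sequence.

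Values are scaled counts, which are reads per gene divided by 1 factor per library. Reads assigned to genes numbered 25837151 in library 20, 26829163 in library 21 and 29532600 in shSC. Nf2, the target of the hairpin, had 486 and 458 scaled counts in libraries 20 and 21, against 1539 in shSC (log2 fold change -1.70 ± 0.24, SE, limma adjusted p = 0.00555), and was thus lower in both libraries labelled shNF2. Of the 13 mesothelial markers listed, 5 had a row, among them the keratin gene Krt18 (20440 and 16560 scaled counts in libraries 20 and 21, against 23660 in shSC) and Msln, which encodes mesothelin (9722 and 8977, against 7397). Wt1, Upk3b and Calb2 had no row, so the mesothelial label rests on Msln and keratins here. Why a gene had no row is not known here, so a missing row is not read as absence of RNA. Of the 5 markers 1 rose, where 0.414% of all tested genes did. This was the keratin gene Krt7, at 290 and 183 in libraries 20 and 21, against 49.7 in shSC (log2 fold change 2.19, limma adjusted p = 0.0119). Krt19, another keratin gene, had 3016 and 2618, against 5113 in shSC (-0.86, limma adjusted p = 0.0996), and passed only when low genes were kept in the fit (adjusted p = 0.0321). Of 8 keratinocyte markers 2 had a row, Krt10 and Col17a1, with a summed level of 77.4 and 99.1 scaled counts in libraries 20 and 21, against 81.8 in shSC. Krt5, Krt14, Krt15, Krt1, Trp63 and Dsg3 had no row. Macrophage markers (4 of 12 with a row) summed to 8559 and 8070 in libraries 20 and 21, against 9307 in shSC. Most of each macrophage sum was Mrc1, with 5617 and 6215, against 5940 in shSC. Ptprc, Adgre1, Csf1r, Itgam, C1qa, C1qb, C1qc and Fcgr1 had no row. Fibroblast markers (3 of 10 with a row) summed to 21.97 and 90.4 in libraries 20 and 21, against 14.6 in shSC. Most of the library 21 sum was 1 gene, the smooth muscle actin gene Acta2, with 1 and 71 reads in libraries 20 and 21, against 1 in shSC. None of these keratinocyte, macrophage or fibroblast markers passed limma, edgeR or DESeq2, as fitted here, and 2 macrophage markers that went opposite ways had an unadjusted limma p under 0.05. Lyz2 had 260.5 and 107.9 scaled counts in libraries 20 and 21, against 56.5 in shSC, and passed limma without the filter on low values (adjusted p = 0.0349), while Cd14 had 2576 and 1659, against 3222. The part of these levels in the values below was not tested.

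Sprr RNA was lower in both shNF2 libraries than in shSC, by more in library 20 than in library 21. The 9 Sprr genes together had 742 scaled counts in library 20 and 1149 in library 21, against 1958 in shSC. Library 20 therefore held 37.9% of the shSC level and library 21 58.7%. On the scale of log2(scaled count + 1) the differences from shSC were -1.40 and -0.77, with a mean of -1.08 and an SD of 0.45 between the shNF2 libraries. These sums rest on 709, 1182 and 2011 reads in library 20, library 21 and shSC, and Nf2 itself on 465, 471 and 1581. Exact 95% counting intervals were 0.347 to 0.413 for the ratio of library 20 to shSC and 0.546 to 0.631 for that of library 21. These intervals cover counting error only and say nothing of how separate cultures vary. The members were chosen with this comparison known, so their differences from shSC are given as descriptions, with no test. Fewer cells that make Sprr RNA and less Sprr RNA per cell cannot be told apart in such bulk libraries.

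**Figure D1:**
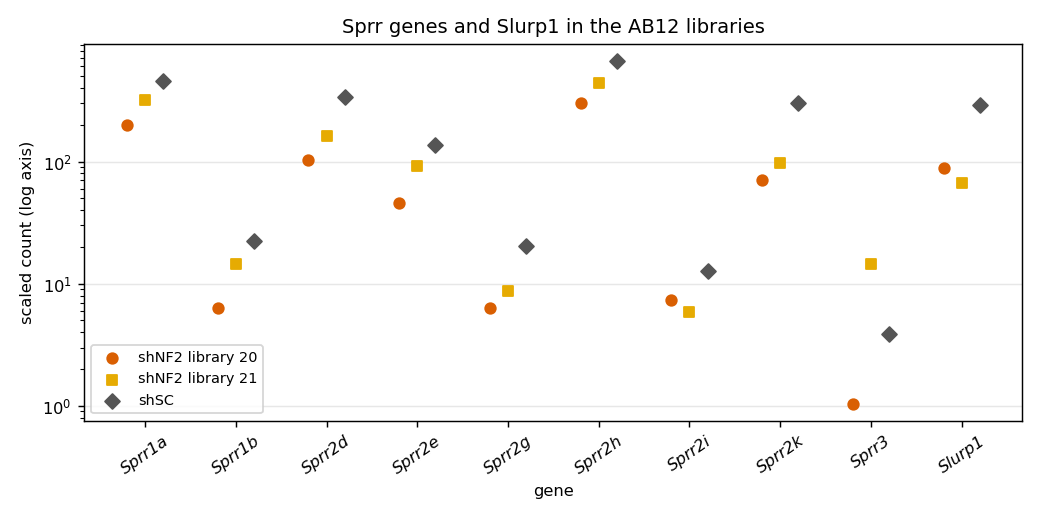
Scaled count on a log axis of each Sprr gene and Slurp1 in shNF2 library 20 (circles), shNF2 library 21 (squares) and shSC (diamonds), 1 point per library. The shSC point is the highest for 9 of the 10 genes, and Sprr3 is the exception.

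Sprr1a and Sprr1b encode the cornifins, envelope precursors of keratinocytes. Sprr1a had 201 and 317 scaled counts in libraries 20 and 21, against 460 in shSC. Sprr1b had 6.28 and 14.6 in libraries 20 and 21, against 22.4 in shSC, from 6, 15 and 23 reads. Both were lowest in library 20 and highest in shSC. The log2 fold changes of Sprr1a were -1.19 and -0.53 in libraries 20 and 21, and those of Sprr1b were -1.68 and -0.59.

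The Sprr2 genes form the largest branch of the mouse family, and 6 of them had a row. Sprr2h had 301 and 437 scaled counts in libraries 20 and 21, against 664 in shSC. Sprr2d had 103 and 162 in libraries 20 and 21, against 339 in shSC. Sprr2k had 70.1 and 97.2 in libraries 20 and 21, against 299.9 in shSC. For all 3 the shNF2 libraries lay below shSC, with library 21 between library 20 and shSC. Sprr2k had the lowest ratios among the Sprr genes with at least 100 reads in shSC: library 20 held 23.4% of its shSC level and library 21 32.4%, with 95% counting intervals of the ratios of 0.177 to 0.305 and 0.256 to 0.407. For Sprr2h these shares were 45.4% and 65.9%, and for Sprr2d 30.2% and 47.9%. Sprr2e, at 46.0 and 91.4 scaled counts in libraries 20 and 21 against 136 in shSC, showed the widest gap between the shNF2 libraries among these abundant Sprr2 genes, with log2 fold changes of -1.55 and -0.57.

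The remaining Sprr genes had few reads. Sprr2g had 6.28 and 8.75 scaled counts in libraries 20 and 21, against 20.4 in shSC. Sprr2i had 7.32 and 5.83 in libraries 20 and 21, against 12.7 in shSC, from 7, 6 and 13 reads, and the counting intervals of both ratios to shSC included 1 (0.195 to 1.56 and 0.144 to 1.30). Sprr3, which in human tissue marks the lining of the oesophagus and other internal squamous epithelia, went its own way. It had 1.05 and 14.6 scaled counts in libraries 20 and 21, against 3.89 in shSC, from 1, 15 and 4 reads, so the shNF2 libraries lay on either side of shSC. Sprr2i and Sprr3 had a mean under 10 scaled counts and were not among the 12813 genes tested; the other 8 members were. Sprr2a, Sprr2b, Sprr2f and Sprr4 had no row and are not analysed here.

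Slurp1 was also lower in both shNF2 libraries, and here library 21 was the lower. It had 87.9 and 67.1 scaled counts in libraries 20 and 21, against 292 in shSC, from 84, 69 and 300 reads. Library 20 held 30.1% of the shSC level and library 21 23.0%, with counting intervals of the ratios of 0.233 to 0.384 and 0.174 to 0.299. The log2 fold changes were -1.72 and -2.11, with a mean of -1.91 and an SD of 0.27 between the shNF2 libraries. Of all tested genes, 0.39% had a lower mean log2 fold change than Slurp1. The same share was 0.421% for Sprr2k, 1.13% for Sprr2d, 3.15% for Sprr2h and 3.26% for Sprr1a. For Sprr3, itself not tested, it was 73.1%. In library 21 alone the share was higher for Sprr2h (10.03%) and Sprr1a (12.53%), and in library 20 alone it was lower for both. The members were chosen with this contrast known, so these shares describe rank only and nothing is read from them.

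Counted over the members, 9 of 10 were below shSC in both shNF2 libraries, and Sprr3 was the exception. Among all 13936 genes, 35.9% were below shSC in both. At least 2-fold lower in both were 4 members, namely Sprr2d, Sprr2g, Sprr2k and Slurp1, where the share of all genes was 1.57%. Each of these counts uses the contrast from which the members were chosen and shares 1 shSC library, so nothing is read from it. These counts are on the log2(scaled count + 1) scale. In library 20 taken alone, 9 of 10 members were at least 2-fold below shSC on it (3.93% of all genes), with Sprr2i the exception. In library 21 4 of 10 were (4.13%), and Sprr2i lay at the limit, at 46.1% of its shSC scaled count but -0.999 on that scale. The median log2 fold change of the 8 tested members was -1.62 in library 20 and -0.83 in library 21, and over all tested genes it was 0.0066 and -0.0023. The member median leaves out Sprr2i and Sprr3, and Sprr2g reached a mean of 10 scaled counts only through shSC. It uses the same contrast, so nothing is read from it either.

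**Figure D2:**
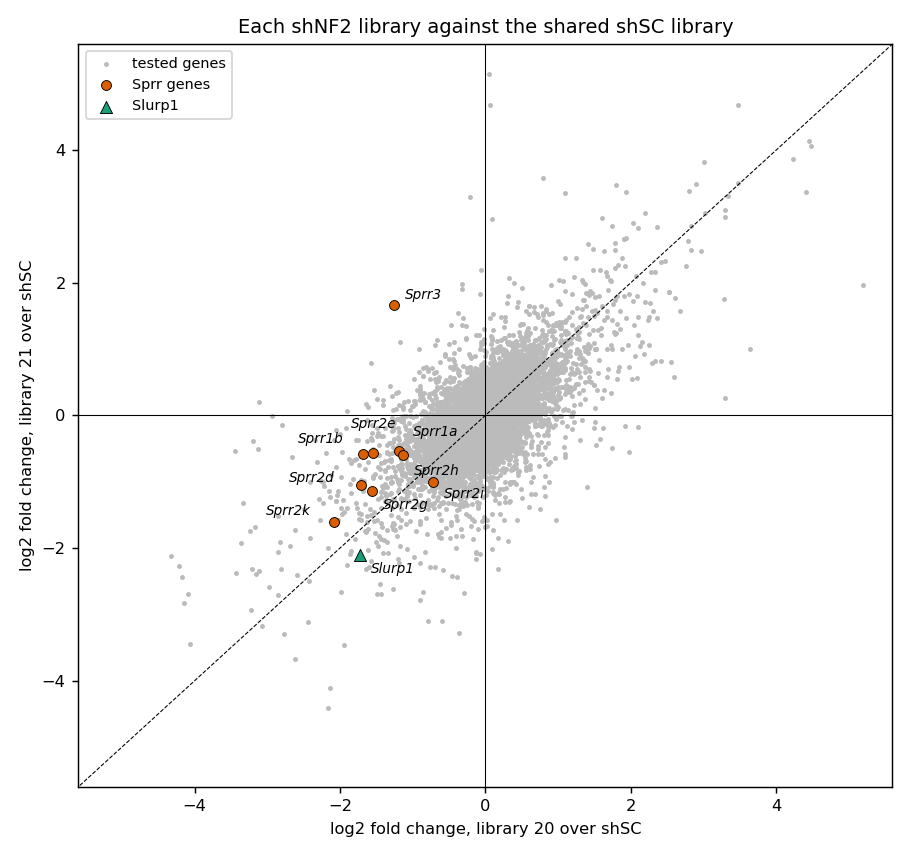
Log2 fold change on the log2(scaled count + 1) scale of library 20 (x axis) and library 21 (y axis) over the shared shSC library, for tested genes (grey), the 9 Sprr genes (circles) and Slurp1 (triangle); the dashed line marks equal values. Sprr2k (-2.08 and -1.62) and Slurp1 (-1.72 and -2.11) lie farthest toward the lower left among members, most Sprr genes lie above the dashed line, and Sprr3 (-1.26 and 1.67) lies apart.

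The shNF2 libraries differed from each other in Sprr RNA. This comparison does not use shSC, and has 1 library on each side. Summed Sprr scaled counts were 1.55 times as high in library 21 as in library 20 (95% counting interval 1.41 to 1.70). The counting interval of the ratio was 1.34 to 1.92 for the 2 Sprr1 genes together (331.5 scaled counts in library 21, 207 in library 20). It was 1.35 to 1.68 for the 6 Sprr2 genes together (803 and 533.5). The Sprr1 sum was almost all Sprr1a, with 192 of 198 reads in library 20 and 326 of 341 in library 21. The interval of Sprr1b, 0.852 to 7.31, included 1. Single genes ran the same way: the ratio was 1.58 (1.32 to 1.90) for Sprr1a, 1.58 (1.23 to 2.05) for Sprr2d, 1.45 (1.25 to 1.69) for Sprr2h and 1.99 (1.37 to 2.91) for Sprr2e. For Sprr2k it was 1.39 (1.01 to 1.92). Library 21 was above library 20 for 8 of the 9 Sprr genes, all but Sprr2i, where 50.7% of all 13936 genes had the higher value in library 21. Slurp1 had a ratio of 0.763 with an interval of 0.547 to 1.06, which includes 1. The Nf2 ratio was 0.941 (0.826 to 1.07), an interval that includes 1 as well. With 1 library on each side, differences between libraries beyond counting error have no replicate check.

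The make-up of the Sprr reads within a library depends on no scaling factor. Sprr2h took 40.6% and 38.1% of the Sprr reads in libraries 20 and 21, against 33.9% in shSC. Sprr1a took 27.1% and 27.6%, against 23.5% in shSC. Sprr2k took the smaller shares of 9.45% and 8.46% in libraries 20 and 21, against 15.3% in shSC, with exact (Clopper-Pearson) 95% intervals of 7.40 to 11.9% and 6.94 to 10.2% in libraries 20 and 21, and 13.8 to 17.0% in shSC. Sprr2d likewise took 13.8% and 14.1% against 17.3%, and Sprr2e 6.21% and 7.95% against 6.96%. Among these genes only for Sprr2k did the intervals of both shNF2 libraries lie clear of that of shSC; for Sprr1a and Sprr2d both overlapped it, and for Sprr2h that of library 21 did (35.3 to 40.9% in library 21, against 31.84 to 36.03% in shSC). These are shares of reads and not of molecules, because no transcript length was used. Reads not uniquely aligned, 36.5%, 35.5% and 37.5% of all reads in library 20, library 21 and shSC, stood in a row that names no gene. They were left out of the gene values, which were whole reads and so not split between genes. Reads that fit several near-identical Sprr2 copies may be among those left out. The division of reads among Sprr2 genes is uncertain for this reason.

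**Figure D3:**
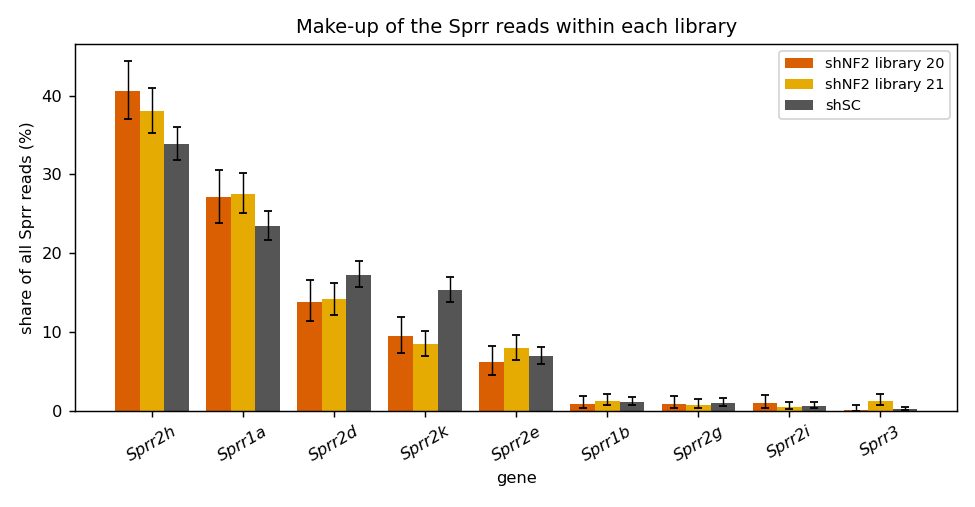
Share of all Sprr reads in a library (%, y axis) taken by each Sprr gene, for library 20, library 21 and shSC from left to right; bars start at 0 and error bars are exact 95% binomial intervals, which cover counting error only. Sprr2k took 9.45% and 8.46% in libraries 20 and 21 against 15.3% in shSC, and Sprr2h 40.6% and 38.1% against 33.9%.

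Other envelope proteins, transglutaminases, desmosome genes, squamous keratins, nicotinic receptor subunits, proteases and barrier lipid enzymes gave no call by limma, edgeR or DESeq2. At an unadjusted limma p under 0.05 stood 1 envelope gene (Scel), 1 desmosome gene (Pkp2) and 2 protease or inhibitor genes (Spink4 and Tmprss11b), and 0 in the other 4 of these lists, where 9.27% of all tested genes had such a p. Across all genes limma called 53 genes higher (0.414% of those tested) and 55 lower (0.429%) in shNF2 at an adjusted p under 0.05. Among other envelope proteins and plakins, 10 had a row and 8 were tested; 0 passed in either direction, and their median log2 fold change was -0.35. Scel, which encodes sciellin, an envelope precursor, had 469 and 503 scaled counts in libraries 20 and 21, against 228 in shSC (log2 fold change 1.09 ± 0.26, SE, limma adjusted p = 0.0936). Cstb, a cysteine protease inhibitor, had 10920 and 10190 in libraries 20 and 21, against 13780 in shSC (-0.39). Evpl, which encodes envoplakin, had a log2 fold change of -0.61, and Dmkn, which encodes the secreted protein dermokine, -0.95. Involucrin, loricrin and filaggrin, the classic partners of Sprr proteins, had no row under the symbols Ivl, Lor and Flg. Of the transglutaminases, Tgm2 had 750 and 778 scaled counts in libraries 20 and 21, against 658 in shSC (log2 fold change 0.21), and Tgm1, the main keratinocyte crosslinker, had 33.5 and 14.6, against 8.76 (1.25). Neither passed, so 0 of 2 tested transglutaminases were called, with a list median of 0.73.

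Junction and keratin genes of squamous epithelia were few and none passed. Of 6 tested desmosome genes 0 were called (median log2 fold change 0.17). Pkp2, a desmosomal plakophilin, had 612 and 784 scaled counts in libraries 20 and 21, against 325 in shSC (1.09, limma adjusted p = 0.0888). Perp, Dsp and Pkp3 had log2 fold changes of 0.41, 0.51 and -0.70. Of 2 tested squamous keratins 0 were called (median 0.26): Krt80 had a log2 fold change of 0.39 and Krt10 0.12.

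The S100 genes, calcium-binding proteins of which many are neighbours of the Sprr cluster in the epidermal differentiation complex, moved in both directions. Of the 11 S100 genes tested, 1 rose and 1 fell, where 0.414% of all tested genes rose and 0.429% fell. The median log2 fold change of the S100 genes was -0.25. S100a7a, a chemotactic protein of inflamed skin, rose to 2210 and 2223 scaled counts in libraries 20 and 21, against 758 in shSC (1.55 ± 0.22, SE, limma adjusted p = 0.00555). S100a16 fell to 3639 and 3577, against 7773 in shSC (-1.11 ± 0.21, SE, limma adjusted p = 0.0232). S100a4 and S100a10 did not pass, at log2 fold changes of -0.74 and -0.57. Taken by position, 10 genes other than members matched by symbol one of the 61 human protein-coding genes between S100A11 and S100A1 in human RefSeq (GRCh38.p14). They comprised 9 S100 genes and Crct1, and of the 9 tested the same 1 rose and 1 fell. The most abundant were S100a6, S100a4 and S100a11, with 82900, 47310 and 19550 scaled counts in library 20, 67950, 33580 and 17380 in library 21, and 81070, 66800 and 20810 in shSC. S100a1 and S100a6 had log2 fold changes of -0.43 and -0.11, and S100a11 -0.17. Human gene order was used as a stand-in for the mouse.

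Among the Ly6/uPAR relatives of Slurp1, of 10 tested 1 rose and 1 fell (0.414% and 0.429% of all tested genes did). Their median log2 fold change was -0.33. Ly6a, which encodes the surface antigen Sca-1 of stem cells and activated lymphocytes, fell to 1379 and 1150 scaled counts in libraries 20 and 21, against 3949 in shSC (-1.65 ± 0.22, SE, limma adjusted p = 0.00469). Psca, a prostate stem cell antigen gene, rose, but on few reads: it had 22 and 24 in libraries 20 and 21, against 2 in shSC. The ratio was 11.9, and its exact 95% interval for counting error ran from 3.11 to 101. Its limma adjusted p of 0.049 was close to the threshold, and the call was lost under 7 of the alternatives (adjusted p between 0.0506 and 0.715). Ly6c1 and Ly6f did not pass, at log2 fold changes of -1.07 and 0.998. Of the nicotinic receptor subunits, the family that Slurp1 acts on, 2 had a row and 0 passed: Chrnb1 had 650 and 612 scaled counts in libraries 20 and 21, against 442 in shSC (0.51), and Chrnb2 had a log2 fold change of 0.01.

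Proteases and inhibitors of squamous epithelia gave 0 calls among 9 tested (median log2 fold change -0.37). Tmprss11b, a membrane serine protease of oral and oesophageal epithelium, had 8.37 and 36.9 scaled counts in libraries 20 and 21, against 93.5 in shSC (-2.32, limma adjusted p = 0.191). Spink4, a Kazal-type inhibitor gene, had 10.5 and 1.94, against 49.7 (-3.12, limma adjusted p = 0.121). Both were below shSC in both shNF2 libraries, which differed widely from each other. Prss22 and Spint2 had log2 fold changes of -0.52 and -0.37. Of 11 tested barrier lipid genes 0 passed (median 0.06), with Ugcg, which makes glucosylceramide, at 0.36, Sult2b1 at -0.55, Abhd5 at -0.36 and Elovl1 at 0.26.

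Transcription factors of squamous differentiation had a median log2 fold change of -0.41 over 26 tested, where the median over all tested genes was -0.0043. Below shSC in both shNF2 libraries were 17 of the 26 (35.9% of all 13936 genes, tested or not, were). Of these 26 factors 1 rose and 0 fell (0.414% and 0.429% of all tested genes did). An unadjusted limma p under 0.05 was found for 8 of the 26, where 9.27% of all tested genes had such a p. The list was chosen with earlier results known, and both differences use the same shSC library, so nothing is read from these counts. Ets1, a factor that restrains terminal differentiation of keratinocytes, rose to 1261 and 1103 scaled counts in libraries 20 and 21, against 407 in shSC (1.53 ± 0.24, SE, limma adjusted p = 0.00849). Sox9 had 269.9 and 249.8 in libraries 20 and 21, against 569.6 in shSC (-1.13, limma adjusted p = 0.0867). Pparg had 14.6 and 12.6, against 55.5 (-1.95), and Junb, an AP-1 subunit, 524 and 322, against 801 (-0.96). Klf4 and Ehf, both named after their values were seen, were also below shSC in both libraries. Klf4 had 750 and 876 scaled counts in libraries 20 and 21, against 1327 in shSC (-0.71). Ehf had 1284 and 1087, against 1731 (-0.55). Sox9, Pparg, Junb, Klf4 and Ehf did not pass. Vdr, the vitamin D receptor gene, and Zfp750, both named after their values were seen, were above shSC in both libraries, at log2 fold changes of 1.94 and 1.84 from 3 and 6 reads in shSC, and did not pass either.

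**Figure D4:**
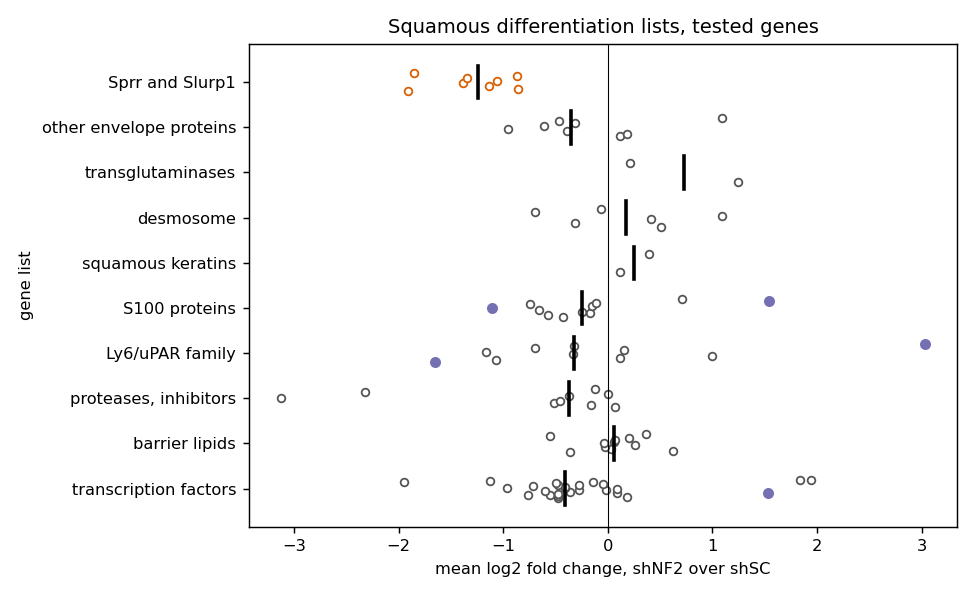
Mean log2 fold change of shNF2 over shSC (x axis) for each tested gene of 10 lists (y axis); black bars mark list medians and filled points genes passing limma at an adjusted p under 0.05. The Sprr and Slurp1 points, drawn open with no test, have a median of -1.24, while the other lists have medians between -0.41 and 0.73. Members were chosen with this contrast known, so nothing is read from that gap. Sprr2i and Sprr3 were not tested and are not drawn.

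Genes with fold changes most like those of the members were sought among 9502 tested non-member genes. These had a mean of at least 100 scaled counts, and unnamed gene models were left out, some of which may lie nearer than the genes named. Likeness was measured by the Euclidean distance between the pairs of log2 fold changes of libraries 20 and 21. This likeness rests on 3 libraries. Nearest to the summed Sprr counts (-1.40 and -0.77) were Plxna3, a semaphorin receptor gene (-1.45 and -0.80, distance 0.06), Dhrs3, which encodes a retinaldehyde reductase (-1.34 and -0.77, distance 0.06), Ankrd44 (0.18), Nov, a CCN matricellular gene (0.18), and Mlph (0.19). None of these 5 passed limma, with adjusted p between 0.109 and 0.246; without the filter on low values Ankrd44 (0.0282) and Nov (0.0333) did. Nearest to Slurp1 was Pthlh, which encodes parathyroid hormone-related protein, at 93.1 and 79.7 scaled counts in libraries 20 and 21, against 342 in shSC (-1.86 and -2.09, distance 0.14). Next came Il1f6, which encodes an epithelial cytokine of the interleukin family, with 7975 and 7594 scaled counts in libraries 20 and 21, against 27570 in shSC (distance 0.26), Snap25 (0.35), Nf2 itself (0.36) and Ly6a (0.39). All 5 of these genes near Slurp1 passed limma, with adjusted p between 0.0018 and 0.041. Each of these calls was lost under quantile normalization and with the variance trend left out. That of Snap25 was also lost under TMM, another scaling (limma adjusted p = 0.0584), and by DESeq2 (0.0923). The order of distance is a description and carries no test.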

How the data were processed

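Per the labels' protocols, polyA RNA went into stranded TruSeq libraries that were read as pairs. The authors deposited a single table of signal per gene, whose name speaks of scaled counts. Tools named in the submitters' processing notes, without saying what each did, are DESeq 1.22.1, HTSeq 0.5.3, STAR 2.5.0a and cutadapt 1.6; the build is mm10. Multiplying the deposited values by 1 factor per library (0.956, 1.03 and 1.03 for library 20, library 21 and shSC) gave whole reads for 100% of them, within 0.001 reads. Rows that name no gene, 4 in all, held 48.7%, 47.7% and 48.6% of reads and were left out. The sources used here do not say whether counting used strand.

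All 12813 genes whose mean scaled count reached 10 entered one fit of log2(scaled count + 1), by limma 3.58.1 in R 4.3.3 with a variance trend. P-values were adjusted by Benjamini and Hochberg's method, and 0.05 was the threshold. The log2(scaled count + 1) scale understates differences in low genes. The variance has 1 residual degree of freedom, from the shNF2 pair, with 11.9 prior degrees of freedom added, and shSC is assumed to vary like that pair. The smallest p of an exact test of 2 against 1 libraries is 0.333. Alternatives were edgeR 4.0.16 and DESeq2 1.42.0 on the recovered reads, other pseudocounts, filters, scalings and moderations, and each shNF2 library left out. The method was run on simulated data, with changes planted only in genes with a mean of at least 100 scaled counts. All simulated libraries were drawn with the same spread, so that run cannot check the assumption about shSC.

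The members and gene lists were chosen with earlier results of these data known. Named genes were all members, Nf2, the genes of each list that passed or had the 4 smallest p (for the positional list, the 6 most abundant), and the 5 genes nearest to the Sprr sum and to Slurp1, unnamed gene models skipped. No mouse sequence or annotation was used.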

Additional observations from a re-analysis of the deposited data

How the results depend on the processing

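The summed Sprr log2 fold change lay between -1.09 and -1.05 under other pseudocounts, filters, scalings and tools, and between -1.40 and -0.77 with 1 shNF2 library left out; that of Slurp1 lay between -1.92 and -1.80, and between -2.11 and -1.72. Sprr2g had -0.80 with pseudocount 10 (-1.35 as reported). limma called 110 genes higher and 122 lower without the filter on low values, edgeR called 29 higher and 52 lower, and limma called 0 in either direction under quantile normalization (457 higher and 425 lower had an unadjusted p under 0.05) and with the variance trend left out (513 and 523). The calls on S100a7a, S100a16, Ly6a, Ets1, Krt7 and Nf2 were lost under these same 2 settings, with adjusted p between 0.187 and 0.523, and the cause was not tested; Scel, Pkp2, Sox9, Spink4, Tmprss11b, Krt19 and Lyz2 passed without the filter (0.0297, 0.0215, 0.0263, 0.0209, 0.0317, 0.0321 and 0.0349). Without library 20 and without library 21, log2 fold changes took opposite signs for Sprr3 (1.67 and -1.26), Abhd5 (0.043 and -0.76), Cd68 (-0.018 and 0.24), Mrc1 (0.065 and -0.081), Chrnb2 (0.28 and -0.26), Krt10 (0.29 and -0.052) and S100a6 (-0.25 and 0.032); quantile normalization gave Mrc1 0.061 and S100a6 0.23. No paired analysis was possible because shSC has 1 library. With 1 to 23 reads per library for Sprr1b, Sprr2g, Sprr2i and Sprr3, depth limits their ratios.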

Other observations

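Some genes of the lists fell under the mean of 10 scaled counts and were not tested in the main comparison. Of these 16 genes 5 were below shSC in both shNF2 libraries, 5 above it in both and 6 mixed. The genes above it include the fibroblast marker Col3a1, which is not a squamous gene. Col17a1 counts as below, though library 21 had 5.83 scaled counts against 5.84 in shSC. The 4 genes described next were chosen after their values were seen, for being low. Krt6a, a keratin of activated and hyperproliferative epidermis, had 2 and 1 reads in libraries 20 and 21, against 18 in shSC, which gives a ratio of 0.0874 (exact 95% interval for counting error 0.0165 to 0.299). Krt13, a keratin of internal stratified epithelia, had 4 and 4 reads, against 18 in shSC (0.23, interval 0.0866 to 0.557). Tgm5, an epidermal transglutaminase, had 1 and 1 reads, against 14 (0.074, interval 0.00817 to 0.322), and Prdm1, a transcriptional repressor active in the upper epidermis, 4 and 2 reads, against 20 (0.157, interval 0.0517 to 0.406). All 4 were below shSC in both shNF2 libraries, and none passed limma without the filter on low values (adjusted p between 0.139 and 0.37). Most reads of each were in shSC, so whether it had a row at all may rest on that library. Nothing is read from these 4 ratios. The tested genes of the same families had positive log2 fold changes, Krt10 0.12, Krt80 0.39, Tgm1 1.25 and Tgm2 0.21, and did not pass.

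Sprr3 was not alone in holding most of its few reads in library 21. Lce1g, a late cornified envelope gene, had 2 and 18 reads in libraries 20 and 21, against 1 in shSC, and Tmprss11f had 6 and 19, against 1. Crct1 had 2 and 9 reads, against 4 in shSC. These genes were chosen after their values were seen, and with 1 library on each side the excess in library 21 has no replicate check.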
